A study of Mus musculus with 20 samples.

Results

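The genes described here are 39 mouse genes of the NRF2 antioxidant response and of glutathione metabolism, followed through 5 groups of fasted livers. They comprise the transcription factor NRF2 (Nfe2l2) and its repressor Keap1, 16 further genes of glutathione synthesis, peroxide and quinone reduction and detoxification, 17 glutathione transferases of the soluble and microsomal families, and 4 enzymes of the pentose phosphate pathway. They were chosen by gene symbol, as 39 of the 56748 rows of the deposited gene count table. All 39 passed the filter on low counts, which left 15669 genes.

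NRF2 pairs with small MAF proteins and binds antioxidant response elements near its target genes. KEAP1 holds NRF2 in the cytoplasm and marks it for degradation, and oxidants or electrophiles that modify KEAP1 let NRF2 protein accumulate, so that much of the control lies in the protein and not in the transcript. In liver, NRF2 targets make and recycle glutathione, reduce quinones and peroxides and supply NADPH, and glutathione transferases join glutathione to lipid peroxidation products and foreign compounds. Many hepatic transferases also respond to other receptors, such as CAR, PXR and PPARalpha.

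Each group held 4 liver libraries from mice fasted for 24 h. Control mice carried floxed Cpt1a, Cpt1b and Cpt2 and are called littermates in the series' design text. Whether they were littermates of every mutant group is not stated, and their label names no floxed Ppara. Differences between breeding lines, if any, cannot be told apart from those of genotype. Cpt1DKO livers lacked Cpt1a and Cpt1b, Cpt2KO livers lacked Cpt2, TKO livers lacked all of these genes, and Cpt2PparaDKO livers lacked Cpt2 and Ppara. CPT1 and CPT2 carry long-chain fatty acids into mitochondria, and PPARalpha, the product of Ppara, drives lipid genes in fasting. The labels call each deletion liver-specific but do not name the Cre driver, the age or the sex of the mice. They also do not state that each library is a separate mouse, so that the p-values describe the spread between libraries, part of which may be technical. All 4 mutant groups were set against one Control group, and their comparisons with it therefore share those libraries.

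The deepest library, Cpt2PparaDKO replicate 1, held 36452673 counts, and the other 19 held between 14129595 and 20273303. Sex-linked transcripts gave a female pattern in 2 libraries, Cpt2KO replicate 3 and Cpt2PparaDKO replicate 4, and a male pattern in the other 18. Levels are given as CPM, which is counts scaled to a common library size with TMM factors, in the order of replicates 1 to 4 where single libraries are listed. The targeted Cpt1a stood at 1040 ± 76.6 CPM in Control, 155 in Cpt1DKO and 137 in TKO (SD, n = 4 for each mean). Cpt2 went from 249 CPM in Control to 131 in Cpt2KO, 103 in TKO and 33.9 in Cpt2PparaDKO, and Ppara from 233 in Control to 73.2 in Cpt2PparaDKO. Cpt1b averaged only 0.543 CPM among the Control libraries, too low for a fall below that level to be checked. Livers labelled as lacking this gene had higher means, 0.881 CPM for Cpt1DKO and 2.8 (range 2.38 to 3.03) for TKO. The Cpt2KO mean, where Cpt1b was not targeted, was 3.91 CPM (range 1.5 to 5.28) and overlapped TKO. The counts therefore did not show the Cpt1b deletion. The summed level of 6 hepatocyte markers was 81200 to 101000 CPM in Control and 79200 to 88200 in Cpt1DKO. It was 42400 to 71700 CPM in Cpt2KO, 35700 to 64900 in TKO and 36500 to 43600 in Cpt2PparaDKO. All 6 were present in every group, and 4 of 6 were called lower (adjusted p under 0.05, edgeR) in Cpt2KO and in TKO and 5 of 6 in Cpt2PparaDKO. The shares of all genes called lower in these groups were 17.2%, 14.4% and 17.6%. The sum of 7 stellate and matrix markers was 181 to 208 CPM in Control and wholly above that in Cpt1DKO (229 to 286), Cpt2KO (236 to 331) and Cpt2PparaDKO (239 to 284), with 1, 1 and 4 of the 7 called higher. The shares of all genes called higher there were 2.44%, 16.2% and 14.9%, and the median log2 differences of the 7 were 0.42, 0.09 and 0.7. The 9 macrophage markers summed to 241 to 493 CPM in Control and 479 to 576 in Cpt2PparaDKO, with 1 of the 9 called higher, beside the same 14.9%. The sum of 6 cholangiocyte markers was 29.9 to 35.9 CPM in Control and wholly below that in Cpt1DKO (18.5 to 26.5), Cpt2KO (7.61 to 15, with Tff2 at 0) and TKO (10.7 to 20.6), and was 20.4 to 50.6 in Cpt2PparaDKO. Of these markers 5 were tested, and none was called in Cpt1DKO, where their median log2 difference was 0.35. In Cpt2KO and in TKO 2 of the 5 were called lower, and 1 in Cpt2PparaDKO, beside the shares given for the hepatocyte markers. Summed levels of 7 lymphocyte and 5 neutrophil markers were at most 6.22 and 3.88 CPM in any library. In whole liver, fewer cells of a type and less RNA per cell cannot be told apart, and the part of cell composition in the results below was not tested.

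Promoter stretches are shown because antioxidant response elements define the NRF2 response. The core motif searched was TGACNNNGC (N is any base), on both strands, from 250 bases before to 50 after the annotated start. RefSeq windows on build GRCm38.p6 were present for 34 of the 39 genes, and 10 of these 34 (29.4%) held the motif, against 3781 of 27025 genes with a window (14%) and 4071 of 32851 windows (12.4%). The windows are on an older build than the count table, so the coordinates below apply to GRCm38.p6 only. Each line gives the 29 bases around an upstream match, 5′ to 3′ on the strand of the motif, with the motif in capitals.
Nfe2l2 (chr2:75704885-75704913, minus strand): tcagcccaccTGACTCCGCcatgccccgg
Gclm (chr3:122245413-122245441, minus strand): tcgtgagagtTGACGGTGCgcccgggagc
Txnrd1 (chr10:82859104-82859132, minus strand): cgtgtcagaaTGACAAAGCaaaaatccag
Prdx1 (chr4:116685456-116685484, minus strand): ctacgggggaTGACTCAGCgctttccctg
Ugdh, distal (chr5:65435956-65435984, minus strand): gcggagcccgTGACTTAGCtggagctgat
Ugdh, proximal (chr5:65435918-65435946, plus strand): ccgaactgtaTGACCACGCcccttgagga
Gsta3 (chr1:21240454-21240482, plus strand): aactcaggcaTGACATTGCatttttcttc
Mgst1 (chr6:138140461-138140489, minus strand): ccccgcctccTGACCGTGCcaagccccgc
G6pdx (chrX:74428919-74428947, plus strand): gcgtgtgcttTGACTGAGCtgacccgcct
Ugdh held a match on each strand, and the remaining matches, in Srxn1 and Pgd, lay after the start and are not printed. A match is a stretch of letters and not a measured binding site. Among the genes with an upstream match, Ugdh rose in 3 of the 4 mutant groups, Gsta3 fell in all 4, Txnrd1, Mgst1 and G6pdx passed the test in 1 group each, and Nfe2l2, Gclm and Prdx1 in none, as described below.

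In the controls, levels per kb of gene model, the scale on which genes can be set side by side, spanned a wide range. Mgst1, a microsomal transferase and peroxidase, was highest at 1260 ± 137 CPM per kb, followed by Gstp1 at 712 ± 67.6, Gstm1 at 538 ± 39.3, the epoxide hydrolase Ephx1 at 293 ± 46.1 and Gsta3 at 229 ± 76.5 (SD, n = 4 each). Gsta3, Prdx1 at 225 ± 19.9 and Gpx1 at 221 ± 15.1 CPM per kb lay within one another's spread, and the spread of Gsta3 also reached that of Ephx1. The carbonyl reductase gene Cbr3 was lowest at 0.61 ± 0.321 CPM per kb. In Cpt2PparaDKO the level of Gstm1 was 1240 ± 335 CPM per kb and that of Mgst1 729 ± 204, and Gstm3, at 6.28 CPM per kb in Control, reached 247 ± 186.

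Livers that lacked Cpt2 raised a set of NRF2 target enzymes while several abundant transferases fell. Cpt1DKO showed part of this, with Gsta3, Gsta4, Gstm6 and Gstt1 called lower. Its Srxn1 and Gsr values lay wholly above Control, without a call. In Cpt2KO against Control 12 of the 39 genes were called higher and 9 lower (adjusted p under 0.05, edgeR), where 33.4% of all genes tested were called, 16.2% higher and 17.2% lower. In TKO 10 were higher and 7 lower, beside 27.4% of all genes called, 13% higher and 14.4% lower. In Cpt2PparaDKO 19 were higher and 9 lower, beside 32.5% of all genes, 14.9% higher and 17.6% lower. In Cpt1DKO, where Cpt2 was intact, 0 were called higher and 4 lower, beside 5.55% of all genes, 2.44% higher and 3.1% lower. At an unadjusted p under 0.05 the counts were 2 higher and 10 lower, and DESeq2 called 0 higher and 7 lower. The median log2 difference from Control over the 39 genes was 0.18 for Cpt2KO, 0.21 for TKO and 0.53 for Cpt2PparaDKO, and -0.06 for Cpt1DKO, beside -0.01, -0.01, 0 and -0.01 over all genes. Without the 2 female-pattern libraries the genes called numbered 25 in Cpt2KO, 20 in TKO, 29 in Cpt2PparaDKO and 11 in Cpt1DKO, beside 36%, 31.5%, 28% and 10% of all genes. The 11 in Cpt1DKO were 2 higher, Gsr and Srxn1, and 9 lower, beside 4.38% and 5.62% of all genes. No female-pattern library is in Control or Cpt1DKO, so leaving them out changed only the shared fit there and not the libraries compared. Scaled to total counts in place of TMM factors, the split was 18 higher and 9 lower in Cpt2KO, 18 and 6 in TKO and 26 and 7 in Cpt2PparaDKO. The shares of all genes then called were 26% higher and 11.1% lower in Cpt2KO, 26.1% and 8.37% in TKO, and 47.5% and 6.48% in Cpt2PparaDKO, and the median of all genes moved to 0.20 in Cpt2KO, 0.24 in TKO and 0.48 in Cpt2PparaDKO.

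**Figure D1:**
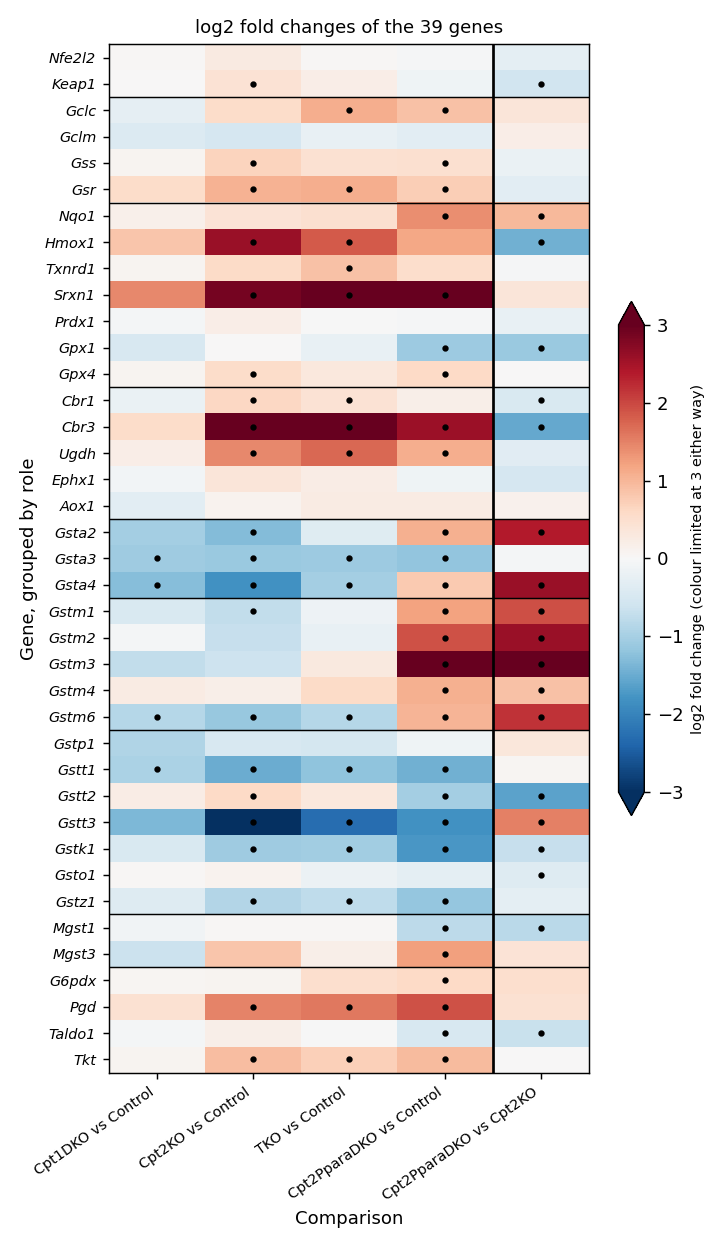
Log2 differences of the 39 genes (rows, ordered by role) in each mutant group against Control and in Cpt2PparaDKO against Cpt2KO (columns), with the colour scale limited at 3 and a dot on each difference with an adjusted p under 0.05. Srxn1, Gsr, Cbr3, Ugdh, Pgd and Tkt carry a dot for a rise in Cpt2KO, TKO and Cpt2PparaDKO, and the 5 mu-class genes carry one in Cpt2PparaDKO.

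Of the 39 genes, 32 were called in at least 1 of the 4 mutant groups against Control. Single comparisons called 5.55%, 33.4%, 27.4% and 32.5% of all genes in Cpt1DKO, Cpt2KO, TKO and Cpt2PparaDKO. The share of all genes with such patterns over several groups was not counted. The patterns are therefore listed and not read as particular to these genes. Gsr, Srxn1, Cbr3, Ugdh, Pgd and Tkt were called higher in Cpt2KO, TKO and Cpt2PparaDKO alike, and Gsta3, Gstt1, Gstt3, Gstk1 and Gstz1 were called lower in those 3 groups. The 7 genes called in none of the 4 comparisons were Nfe2l2, Gclm, Prdx1, Ephx1, Aox1, Gstp1 and Gsto1. Another 5 genes, Gsta2, Gsta4, Gstm1, Gstm6 and Gstt2, were called in opposite directions in different groups.

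The transcript of NRF2 itself was called in none of the mutant groups with TMM scaling and all libraries. Nfe2l2 (ENSMUSG00000015839, chromosome 2, 75505857 to 75534985, minus strand, GRCm39) stood at 69.4, 71.3, 63.7 and 81 CPM in Control, 78.1, 74.5, 71.1 and 67.8 in Cpt1DKO, 68.7, 80.4, 116 and 77.3 in Cpt2KO, 81.8, 70.6, 75.1 and 67 in TKO, and 77.1, 71, 61.4 and 70.6 in Cpt2PparaDKO. The groups overlapped throughout, and only Cpt2KO replicate 3 stood above the rest. The log2 difference from Control was 0.26 (95% interval -0.01 to 0.54, adjusted p = 0.137) in Cpt2KO, and 0.36 (adjusted p = 0.0451) without Cpt2KO replicate 1, 0.47 (adjusted p = 0.0116) with total-count scaling and 0.09 (adjusted p = 0.565) without the female-pattern libraries. In the other mutant groups it was 0.03, 0.04 and -0.03, with 95% intervals that lay between -0.30 and 0.32, although with total-count scaling Cpt2PparaDKO gave 0.45.

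Keap1 (ENSMUSG00000003308, chromosome 9, 21141026 to 21150657, minus strand), which encodes the NRF2 repressor, measured 49.2, 56.3, 59.1 and 58.5 CPM in Control, 59.5, 56.2, 57.9 and 53.3 in Cpt1DKO, 75.7, 88, 66.7 and 69.4 in Cpt2KO, 68.5, 66.7, 59.1 and 63.9 in TKO, and 51.2, 50.7, 49.1 and 51.5 in Cpt2PparaDKO. Every Cpt2KO library lay above every Control library, and Keap1 rose by 0.43 ± 0.1 on the log2 scale (SE, adjusted p = 0.0019). The log2 difference was -0.14 in Cpt2PparaDKO (adjusted p = 0.287; 0.35 with total-count scaling), and Keap1 was lower there than in Cpt2KO by a log2 difference of -0.57 (adjusted p = 0.000207).

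Among the genes of glutathione synthesis and recycling, Gsr was called higher in 3 mutant groups and Gclc and Gss in 2 each. Gclc, the catalytic subunit of glutamate-cysteine ligase (ENSMUSG00000032350, chromosome 9, 77661817 to 77701767, plus strand), stood at 232, 252, 286 and 240 CPM in Control and 199, 219, 216 and 196 in Cpt1DKO. It stood at 454, 310, 146 and 555 CPM in Cpt2KO, 769, 494, 509 and 392 in TKO, and 511, 432, 302 and 632 in Cpt2PparaDKO. All TKO and Cpt2PparaDKO libraries lay above Control, whereas Cpt2KO overlapped it through replicate 3, which was below every Control library. Gclc rose by 1.1 ± 0.3 in TKO (adjusted p = 0.00893) and by 0.89 ± 0.29 in Cpt2PparaDKO (adjusted p = 0.0254). The Cpt2PparaDKO call was lost, with adjusted p from 0.0501 to 0.0869, without Control replicate 1 or 4 or Cpt2PparaDKO replicate 1 or 4. The log2 difference in Cpt2KO was 0.54 (adjusted p = 0.173), and 0.82 (adjusted p = 0.00874) without Cpt2KO replicate 3. Gclm, the modifier subunit, averaged 256 CPM in Control and 181 to 221 in the mutant groups, with no call, although without Cpt2KO replicate 4 its log2 difference in Cpt2KO was -0.73 (adjusted p = 0.0123).

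Gsr, the glutathione reductase that regenerates glutathione with NADPH, averaged 83.6 ± 7.76 CPM in Control and 121 ± 12.5 in Cpt1DKO. The means were 172 ± 42.7 CPM for Cpt2KO, 177 ± 39.2 for TKO and 139 ± 43.9 for Cpt2PparaDKO. Gsr rose by 1.04 (adjusted p = 0.000369), 1.09 (adjusted p = 0.00036) and 0.73 (adjusted p = 0.00707) on the log2 scale in the last 3 groups. In Cpt1DKO the log2 difference was 0.54 (adjusted p = 0.111), and the adjusted p was 0.0205 without the female-pattern libraries, none of which is in Cpt1DKO or Control. Gss, glutathione synthetase, was called higher in Cpt2KO (log2 0.67) and Cpt2PparaDKO (log2 0.49). Gss lost its Cpt2PparaDKO call without Control replicate 1, 2 or 4 or Cpt2PparaDKO replicate 4, with adjusted p from 0.0542 to 0.0907. In TKO the log2 difference of Gss was 0.45 (adjusted p = 0.0587), and its adjusted p was 0.0471, 0.0343 and 0.0358 without Control replicate 3, TKO replicate 2 or TKO replicate 3.

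The peroxide-repair enzyme sulfiredoxin showed one of the largest rises. Srxn1, which restores overoxidised peroxiredoxins (ENSMUSG00000032802, chromosome 2, 151947436 to 151953296, plus strand), measured 65.2, 65.7, 54.2 and 56.1 CPM in Control, 183, 265, 71.3 and 136 in Cpt1DKO, 394, 531, 177 and 667 in Cpt2KO, 924, 470, 385 and 398 in TKO, and 400, 347, 226 and 1290 in Cpt2PparaDKO. Every mutant library was above every Control library. Srxn1 rose by 2.87 ± 0.55 in Cpt2KO (7.33-fold, adjusted p = 0.000746), 3.17 ± 0.56 in TKO (9.02-fold, adjusted p = 0.000515) and 3.23 ± 0.56 in Cpt2PparaDKO (9.37-fold, adjusted p = 0.000381). Without Cpt2PparaDKO replicate 4, a female-pattern library and the highest of its group, the last value was 2.45. In Cpt1DKO the log2 difference was 1.44 ± 0.53 (adjusted p = 0.121), and the adjusted p was 0.0202 without the female-pattern libraries and 0.039 with only the libraries of the 2 groups compared.

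Hmox1, heme oxygenase 1 (ENSMUSG00000005413, chromosome 8, 75820249 to 75827217, plus strand), stood at 24.2, 16.7, 19 and 11.9 CPM in Control, 25.7, 62.8, 15.5 and 24.5 in Cpt1DKO, 71.6, 121, 39 and 201 in Cpt2KO, 93.9, 63.8, 60.5 and 39 in TKO, and 43.5, 38, 35.6 and 42.5 in Cpt2PparaDKO. Cpt2KO, TKO and Cpt2PparaDKO lay wholly above Control, with a far wider spread in Cpt2KO than in Cpt2PparaDKO. Hmox1 rose by 2.59 ± 0.48 in Cpt2KO (adjusted p = 0.000522) and by 1.84 ± 0.47 in TKO (adjusted p = 0.00728), and the log2 difference in Cpt2PparaDKO was 1.15 (adjusted p = 0.065). It passed in Cpt2PparaDKO with total-count scaling, with the female pattern as a covariate, with only the groups compared and with DESeq2.

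Nqo1, the quinone reductase used as a reporter of NRF2 activity (ENSMUSG00000003849, chromosome 8, 108114857 to 108129838, minus strand), measured 9.79, 9.92, 11.9 and 13.9 CPM in Control, 12.4, 13.1, 13.3 and 12.1 in Cpt1DKO, 11.9, 15, 13.4 and 20.8 in Cpt2KO, 22.6, 8.83, 14.9 and 17.3 in TKO, and 25.5, 26.7, 24.4 and 43.8 in Cpt2PparaDKO. Only the Cpt2PparaDKO libraries lay wholly above Control. Nqo1 rose by 1.40 ± 0.24 there (adjusted p = 0.000159), and it was also higher than in Cpt2KO by 0.98 ± 0.23 (adjusted p = 0.00405). Its log2 difference from Control was 0.42 (adjusted p = 0.183) in Cpt2KO and 0.48 (adjusted p = 0.139) in TKO, the latter 0.68 (adjusted p = 0.0248) without TKO replicate 2.

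The other redox enzymes differed in direction. Txnrd1, the cytosolic thioredoxin reductase, averaged 206 ± 20.5 CPM in Control and 380 ± 80.5 in TKO, where it rose by 0.88 on the log2 scale (adjusted p = 0.00878). Its log2 difference was 0.57 in Cpt2KO (0.76, adjusted p = 0.0158, without replicate 3 of that group) and 0.53 in Cpt2PparaDKO (adjusted p = 0.0916). The latter was 0.71 (adjusted p = 0.0276) without replicate 3 of that group and 0.23 (adjusted p = 0.419) without replicate 4, which stood at 479 CPM where the others lay at 195 to 272. It was 1.04 (adjusted p = 0.00282) with total-count scaling. Gpx4, which reduces lipid hydroperoxides in membranes, rose by 0.56 in Cpt2KO and by 0.59 in Cpt2PparaDKO. In TKO the log2 difference of Gpx4 was 0.31 (adjusted p = 0.118; 0.42 and adjusted p = 0.0429 without TKO replicate 2). Prdx1, a peroxiredoxin, was called in no group, and total-count scaling turned its Cpt2PparaDKO difference to 0.44.

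Gpx1, the main soluble glutathione peroxidase (ENSMUSG00000063856, chromosome 9, 108216102 to 108217542, plus strand), measured 304, 297, 344 and 329 CPM in Control, 212, 217, 218 and 264 in Cpt1DKO, 320, 385, 239 and 340 in Cpt2KO, 259, 271, 291 and 264 in TKO, and 183, 195, 140 and 75.8 in Cpt2PparaDKO. The Cpt2PparaDKO libraries lay below all others. Gpx1 fell there by 1.1 ± 0.2 against Control (adjusted p = 0.000297) and by 1.11 ± 0.2 against Cpt2KO (adjusted p = 0.000343). The Cpt1DKO and TKO libraries also lay below Control, without a call in the main fit. In Cpt1DKO the log2 difference of Gpx1 was -0.48 (adjusted p = 0.161; 0.0114 without the female-pattern libraries).

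**Figure D2:**
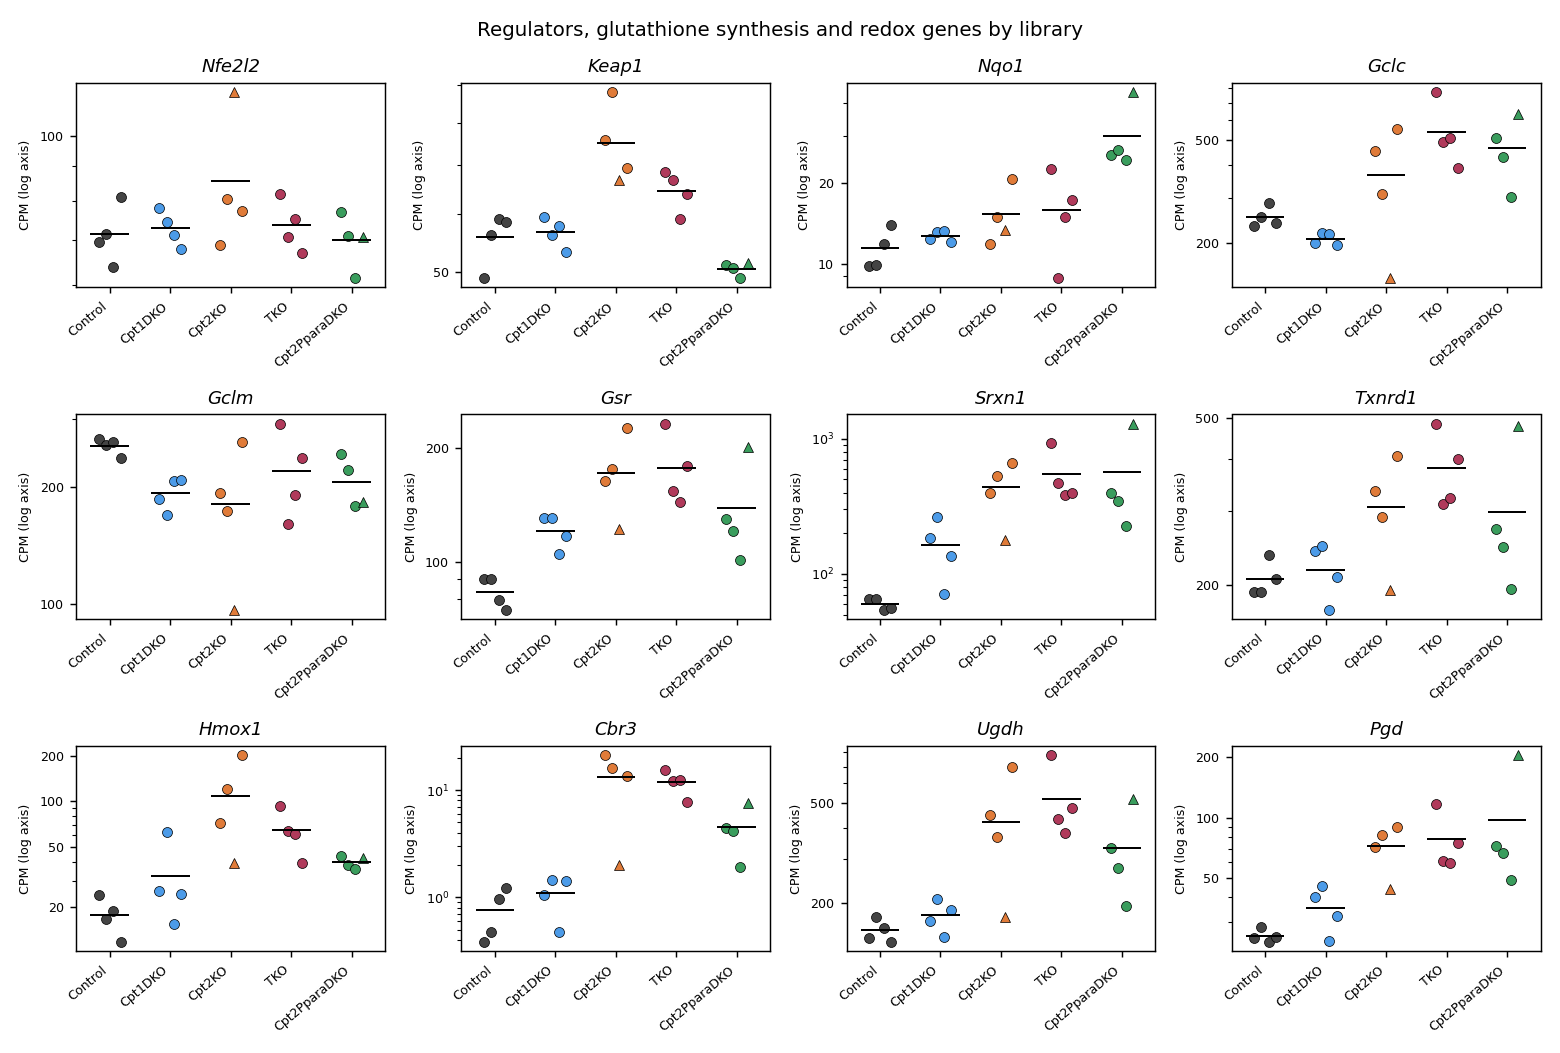
CPM on a log axis in each of the 20 libraries for 12 genes of the NRF2 response, by group, where a horizontal line is the group mean, circles are male-pattern and triangles female-pattern libraries. Nfe2l2 overlaps between all groups, every mutant library lies above every Control library for Srxn1, and the Nqo1 values of Cpt2PparaDKO (24.4 to 43.8 CPM) lie above those of Control.

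Carbonyl reductase 3 had the largest rise of the 39 genes in Cpt2KO and in TKO, from a low level in Control. Cbr3 (ENSMUSG00000022947, chromosome 16, 93480103 to 93487878, plus strand), which reduces quinones and other carbonyls, stood at 0.387, 0.473, 0.971 and 1.23 CPM in Control and 1.06, 1.44, 0.479 and 1.41 in Cpt1DKO. It stood at 21, 16.1, 2.01 and 13.4 CPM in Cpt2KO, 15.3, 12.1, 12.3 and 7.73 in TKO, and 4.38, 4.15, 1.92 and 7.64 in Cpt2PparaDKO. The last 3 groups lay wholly above Control, and the lowest libraries were replicates 3 of Cpt2KO and of Cpt2PparaDKO. Cbr3 rose by 4.09 ± 0.62 in Cpt2KO (adjusted p = 6.74e-05), 3.94 ± 0.61 in TKO (adjusted p = 0.000146) and 2.56 ± 0.61 in Cpt2PparaDKO (adjusted p = 0.00369). Cbr1, its neighbour on chromosome 16, rose by 0.63 in Cpt2KO and 0.43 in TKO. Cbr1 lost the TKO call without Control replicate 1, 2 or 4 or TKO replicate 1 or 4, with adjusted p from 0.057 to 0.126.

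Ugdh, which makes the UDP-glucuronate used in glucuronidation (ENSMUSG00000029201, chromosome 5, 65570564 to 65593292, minus strand), measured 145, 177, 160 and 141 CPM in Control, 170, 209, 147 and 189 in Cpt1DKO, 448, 366, 176 and 700 in Cpt2KO, 775, 435, 382 and 478 in TKO, and 333, 276, 196 and 519 in Cpt2PparaDKO. TKO and Cpt2PparaDKO lay above Control, and Cpt2KO overlapped it through replicate 3 alone. Ugdh rose by 1.44 ± 0.33 in Cpt2KO (adjusted p = 0.00266), 1.73 ± 0.34 in TKO (adjusted p = 0.000871) and 1.09 ± 0.33 in Cpt2PparaDKO (adjusted p = 0.0173). Without Cpt2PparaDKO replicate 4 the last value was 0.81 (adjusted p = 0.0773). Ephx1 and the aldehyde oxidase Aox1 were called in no group, with Ephx1 reaching a log2 difference of 0.52 (adjusted p = 0.0329) in Cpt2KO without replicate 3.

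Of the pentose phosphate enzymes, which supply NADPH to the reductases, 2 of 4 rose in Cpt2KO and in TKO and 3 of 4 in Cpt2PparaDKO. The shares of all genes called higher in these groups were 16.2%, 13% and 14.9%. Pgd, 6-phosphogluconate dehydrogenase (ENSMUSG00000028961, chromosome 4, 149234448 to 149251228, minus strand), stood at 25, 28.6, 24.1 and 25.4 CPM in Control, 40.1, 45.4, 24.2 and 32.3 in Cpt1DKO, 71.4, 82.2, 43.9 and 89.6 in Cpt2KO, 117, 60.4, 59.2 and 74.4 in TKO, and 71.9, 66.2, 48.8 and 204 in Cpt2PparaDKO. All libraries of the last 3 groups lay above Control. Pgd rose by 1.48 ± 0.38 in Cpt2KO (adjusted p = 0.00586), 1.59 ± 0.38 in TKO (adjusted p = 0.00451) and 1.92 ± 0.38 in Cpt2PparaDKO (adjusted p = 0.001; 1.30 without replicate 4). Tkt, transketolase, rose by 0.93, 0.71 and 0.94 in the same groups, with 154 ± 3.16 CPM in Cpt2KO against 80.8 ± 7.38 in Control. G6pdx, the first enzyme of the pathway, rose by 0.59 in Cpt2PparaDKO (adjusted p = 0.0312), and its adjusted p was 0.0546 to 0.0977 without Control replicate 2, 3 or 4 or Cpt2PparaDKO replicate 3. Without Control replicate 1 or TKO replicate 2 G6pdx also passed in TKO, at 0.67 (adjusted p = 0.0276) and 0.64 (adjusted p = 0.0303). Taldo1, transaldolase, fell by 0.48 in Cpt2PparaDKO, and with total-count scaling the difference was 0.00.

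The mu-class transferases separated Cpt2PparaDKO from the other mutants: 5 of 5 were called higher there against Control, while 0 of 5 were called higher in Cpt1DKO, Cpt2KO or TKO. Of all genes, 14.9% were called higher in Cpt2PparaDKO (47.5% with total-count scaling), 2.44% in Cpt1DKO, 16.2% in Cpt2KO and 13% in TKO. Lower calls were made for Gstm6 in Cpt1DKO and TKO and for Gstm1 and Gstm6 in Cpt2KO. The 5 genes lie together on the minus strand of chromosome 3, from 107846163 to 107952210 (GRCm39). They are near-identical in places and the sources used here give neither the counting tool nor its strand setting, so reads may have been split between them and single-gene values are uncertain.

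Gstm3 (ENSMUSG00000004038, chromosome 3, 107871012 to 107876599) moved most of all 39 genes. It measured 9.12, 7.7, 9.92 and 6.2 CPM in Control, 4.77, 4.84, 4.47 and 5.64 in Cpt1DKO, 4.52, 5.49, 3.48 and 7.73 in Cpt2KO, 21.6, 4.18, 6.02 and 8.6 in TKO, and 264, 214, 137 and 682 in Cpt2PparaDKO. The lowest Cpt2PparaDKO library was above the highest library of any other group. Gstm3 rose by 5.30 ± 0.56 against Control (39.4-fold, adjusted p = 4.42e-06), and by 4.66 without Cpt2PparaDKO replicate 4. In the other mutant groups its log2 differences were -0.73, -0.63 and 0.29, with no call. The 250 bases before its RefSeq start (GRCm38.p6, chr3:107969175-107969424, minus strand) are shown because of the size of this rise; they held no TGACNNNGC match and had 56% G and C.
Gstm3 upstream: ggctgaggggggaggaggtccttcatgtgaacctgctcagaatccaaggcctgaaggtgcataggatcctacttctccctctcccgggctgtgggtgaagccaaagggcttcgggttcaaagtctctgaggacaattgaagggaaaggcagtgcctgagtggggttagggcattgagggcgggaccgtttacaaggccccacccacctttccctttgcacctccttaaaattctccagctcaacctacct

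Gstm1, the most abundant mu-class gene (ENSMUSG00000058135, chromosome 3, 107919571 to 107925289), stood at 801, 714, 853 and 802 CPM in Control, 517, 558, 526 and 696 in Cpt1DKO, 456, 491, 342 and 612 in Cpt2KO, 920, 608, 654 and 671 in TKO, and 1790, 1710, 1310 and 2490 in Cpt2PparaDKO. Cpt1DKO and Cpt2KO lay below Control and Cpt2PparaDKO above it. Gstm1 fell by 0.74 ± 0.19 in Cpt2KO (adjusted p = 0.00524) and rose by 1.20 ± 0.19 in Cpt2PparaDKO (adjusted p = 9.62e-05), while the Cpt1DKO difference of -0.46 had an adjusted p of 0.161.

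Gstm2 (ENSMUSG00000040562) measured 31.9, 31.3, 24.5 and 24.9 CPM in Control, 26.3, 30.7, 26.8 and 25.1 in Cpt1DKO, 10.6, 20.3, 20 and 19.1 in Cpt2KO, 37.7, 19.3, 16.9 and 22.9 in TKO, and 108, 88, 55.4 and 173 in Cpt2PparaDKO. Only Cpt2PparaDKO lay above all others, and Gstm2 rose there by 1.92 ± 0.3 (adjusted p = 0.000104). The Cpt2KO libraries lay wholly below Control, without a call in the main fit. Gstm2 was called lower in Cpt2KO without the female-pattern libraries, with the female pattern as a covariate and with only the groups compared. Gstm6 (ENSMUSG00000068762) measured 34.1, 34.1, 33.8 and 35.6 CPM in Control, 15.5, 19.5, 20.2 and 21 in Cpt1DKO, 18.3, 17.6, 11.5 and 15.3 in Cpt2KO, 23.3, 15, 16.1 and 22.1 in TKO, and 55.1, 51.2, 52.8 and 121 in Cpt2PparaDKO. The first 3 mutant groups lay wholly below Control and the last wholly above it. Gstm6 fell by 0.85 ± 0.23 in Cpt1DKO (adjusted p = 0.0347), 1.14 ± 0.23 in Cpt2KO (adjusted p = 0.000839) and 0.85 ± 0.23 in TKO (adjusted p = 0.00952), and rose by 1.02 ± 0.23 in Cpt2PparaDKO (adjusted p = 0.0019). The Cpt1DKO call of Gstm6 was lost, with adjusted p from 0.0553 to 0.127, without any 1 Control library or without Cpt1DKO replicate 1, 2 or 4. With total-count scaling its adjusted p was 0.0885 in Cpt1DKO and 0.0768 in TKO. Gstm4 rose by 1.06 in Cpt2PparaDKO (adjusted p = 0.00104), and in TKO its log2 difference was 0.58 (adjusted p = 0.0549), 0.78 (adjusted p = 0.00569) without TKO replicate 2.

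Summed over Gstm1 to Gstm7, which depends less on how reads were divided within the class, the level was 944 ± 56.2 CPM in Control and 2440 ± 835 in Cpt2PparaDKO (SD, n = 4). Cpt1DKO had 704 ± 92 CPM, Cpt2KO 582 ± 120 and TKO 851 ± 176. The lowest Cpt2PparaDKO library (1640 CPM) exceeded the highest Control library (1000 CPM). The class did not move as a block, since Gstm7, a neighbour outside the 39 genes, fell by 1.25 in Cpt2KO, 1.09 in TKO and 0.94 in Cpt2PparaDKO.

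The alpha-class genes, whose enzymes act on lipid peroxidation products, fell in Cpt2KO (3 of 3 called lower) and split in Cpt2PparaDKO (2 higher, 1 lower). Of all genes, 17.2% were called lower in Cpt2KO, and 14.9% higher and 17.6% lower in Cpt2PparaDKO. They are close paralogs too, so reads may have been split between them and single-gene values are uncertain. Gsta4, best known for conjugating 4-hydroxynonenal (ENSMUSG00000032348, chromosome 9, 78090056 to 78116631, plus strand), stood at 24.8, 20.9, 24.1 and 34.7 CPM in Control, 8.67, 10.1, 10.6 and 13.6 in Cpt1DKO, 8.03, 8.05, 6.46 and 7.38 in Cpt2KO, 13.4, 12, 16.4 and 9.47 in TKO, and 44.9, 42.4, 48.6 and 44.2 in Cpt2PparaDKO. No mutant group overlapped Control. Gsta4 fell by 1.28 ± 0.17 in Cpt1DKO (adjusted p = 0.000194), 1.81 ± 0.17 in Cpt2KO (adjusted p = 2.43e-07) and 1.03 ± 0.17 in TKO (adjusted p = 0.000135), and rose by 0.78 ± 0.16 in Cpt2PparaDKO (adjusted p = 0.00105).

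Gsta2 (ENSMUSG00000057933, chromosome 9, 78238300 to 78263070, minus strand) measured 18.7, 18.8, 19.3 and 19.8 CPM in Control, 8.48, 5.23, 11.7 and 12.7 in Cpt1DKO, 11.7, 3.84, 2.99 and 12.8 in Cpt2KO, 18.9, 15.5, 14.1 and 11.2 in TKO, and 32.6, 31.5, 42.5 and 54.1 in Cpt2PparaDKO. Cpt1DKO and Cpt2KO lay below Control and Cpt2PparaDKO above. Gsta2 fell by 1.30 ± 0.37 in Cpt2KO (adjusted p = 0.0117; 0.0553 with only the 2 groups compared) and rose by 1.07 ± 0.36 in Cpt2PparaDKO (adjusted p = 0.0299). The Cpt2PparaDKO call of Gsta2 was lost, with adjusted p from 0.0558 to 0.0859, without any 1 Control library or Cpt2PparaDKO replicate 4. In Cpt1DKO its log2 difference was -1.01 (adjusted p = 0.119; 0.0435 without the female-pattern libraries).

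Gsta3, the most abundant alpha-class gene, went the same way in all mutants, from 995 ± 332 CPM in Control to means of 437 to 474 CPM in the 4 mutant groups. It fell by 1.07 to 1.19 on the log2 scale, with adjusted p from 0.00043 to 0.00772. Gsta1, a close relative outside the 39 genes, averaged 0.32 ± 0.292 CPM in Control, 5.04 ± 4.03 in Cpt2KO, 9.12 ± 7.49 in TKO and 47.2 ± 26 in Cpt2PparaDKO, and was called higher in those 3 groups. Whether reads of Gsta1 were counted in Gsta2, which also rose in Cpt2PparaDKO, was not tested. The alpha-class sum over Gsta1 to Gsta4 was 1040 ± 334 CPM in Control and averaged 478 to 570 in the 4 mutant groups.

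Transferases of the theta, kappa and zeta classes mostly fell, with 4 of the 7 genes of the pi, theta, kappa, omega and zeta classes called lower in Cpt2KO and in TKO and 5 of 7 in Cpt2PparaDKO. The shares of all genes called lower in these groups were 17.2%, 14.4% and 17.6%. Gstt3 (ENSMUSG00000001665, chromosome 10, 75609949 to 75617248, minus strand) measured 63.3, 55.9, 61 and 76.9 CPM in Control, 23.1, 20.5, 30.6 and 27.4 in Cpt1DKO, 4.25, 2.88, 15.5 and 3.17 in Cpt2KO, 14.8, 22, 9.8 and 6.68 in TKO, and 20.8, 18.4, 11.2 and 22.8 in Cpt2PparaDKO. Every mutant library lay below every Control library. Gstt3 fell by 3.31 ± 0.48 in Cpt2KO (adjusted p = 5.84e-05), 2.28 ± 0.45 in TKO (adjusted p = 0.00126) and 1.81 ± 0.44 in Cpt2PparaDKO (adjusted p = 0.00471). Without Cpt2KO replicate 3, the female-pattern library, the Cpt2KO value was -4.21. The Cpt1DKO difference of -1.34 had an adjusted p of 0.0828, and of 0.00733 without the female-pattern libraries.

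Gstt1, its neighbour (ENSMUSG00000001663, chromosome 10, 75619647 to 75634418, minus strand), stood at 142, 137, 167 and 165 CPM in Control, 61.8, 56.6, 112 and 84 in Cpt1DKO, 48.6, 55, 71.4 and 42.1 in Cpt2KO, 66.1, 83.9, 58.4 and 58.3 in TKO, and 59.8, 62.1, 51.2 and 51.3 in Cpt2PparaDKO. All mutant libraries lay below Control. Gstt1 fell by 0.96 (adjusted p = 0.00476), 1.49 (adjusted p = 5.64e-06), 1.20 (adjusted p = 9.23e-05) and 1.45 (adjusted p = 1.1e-05) in that order of groups, each with an SE of 0.19.

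Gstt2, in the same gene cluster (ENSMUSG00000033318, chromosome 10, 75666948 to 75673258, minus strand), went the other way in Cpt2KO. It measured 151, 154, 147 and 176 CPM in Control, 157, 147, 228 and 202 in Cpt1DKO, 238, 328, 193 and 187 in Cpt2KO, 178, 187, 219 and 198 in TKO, and 84.1, 90.9, 79.8 and 54.4 in Cpt2PparaDKO. Cpt2KO and TKO lay above Control and Cpt2PparaDKO below it. In TKO Gstt2 was not called in the main fit, but passed with total-count scaling or with only the groups compared. Gstt2 rose by 0.59 ± 0.18 in Cpt2KO (adjusted p = 0.0143; 0.39 and adjusted p = 0.0871 without Cpt2KO replicate 2) and fell by 1.02 ± 0.18 in Cpt2PparaDKO (adjusted p = 0.000231).

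Gstk1, the mitochondrial and peroxisomal kappa-class enzyme (ENSMUSG00000029864, chromosome 6, 42222869 to 42227381, plus strand), stood at 105, 118, 128 and 114 CPM in Control, 88.7, 62.4, 99.6 and 89.8 in Cpt1DKO, 56.9, 60.2, 51.5 and 53.7 in Cpt2KO, 53, 69.8, 52.5 and 51.4 in TKO, and 38.2, 40.3, 38.6 and 21 in Cpt2PparaDKO. All mutant libraries lay below Control. Gstk1 fell by 1.06 (adjusted p = 6.69e-05), 1.04 (adjusted p = 0.000136) and 1.75 (adjusted p = 3.68e-07) in Cpt2KO, TKO and Cpt2PparaDKO, each with an SE of 0.17. Gstz1, which also acts in tyrosine breakdown as maleylacetoacetate isomerase, averaged 816 ± 42.1 CPM in Control and 446, 477 and 364 in the same groups, and fell by 0.87, 0.77 and 1.16.

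Among the microsomal, pi-class and omega-class genes, calls were few and lay in Cpt2PparaDKO. Mgst1 was 2540 ± 275 CPM in Control, within its spread in Cpt1DKO, Cpt2KO and TKO (2370 to 2590 CPM), and 1470 ± 411 in Cpt2PparaDKO, where it fell by 0.79 (adjusted p = 0.00219; 0.0965 with total-count scaling). Mgst3, a low-level relative, rose by 1.24 in Cpt2PparaDKO (adjusted p = 0.011). Its log2 difference in Cpt2KO was 0.84 (adjusted p = 0.0737), and 1.07 (adjusted p = 0.0424) without Control replicate 3. Gstp1 averaged 1100 ± 105 CPM in Control and 591 ± 120 in Cpt1DKO, with a log2 difference of -0.90 (adjusted p = 0.0715; 0.00193 without the female-pattern libraries). Gsto1, an omega-class enzyme, was called in no mutant group against Control, although without Cpt2PparaDKO replicate 4 its log2 difference was -0.49 (adjusted p = 0.00137).

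**Figure D3:**
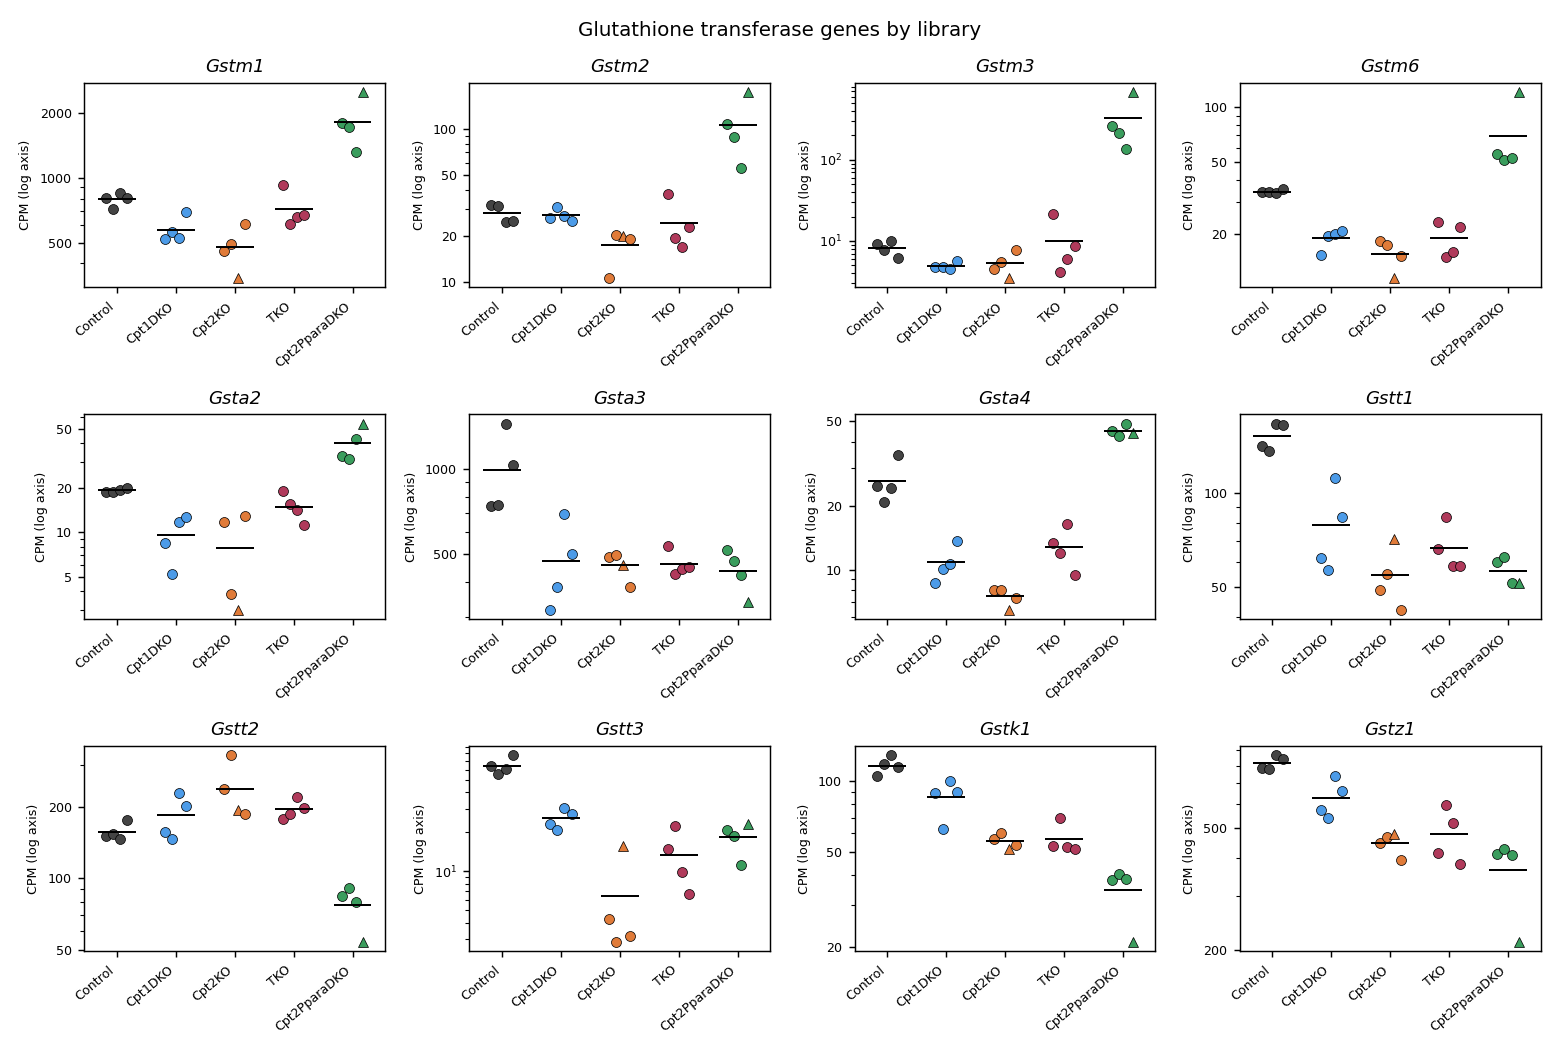
CPM on a log axis in each of the 20 libraries for 12 glutathione transferases, by group, where a horizontal line is the group mean, circles are male-pattern and triangles female-pattern libraries. Gstm1, Gstm2, Gstm3, Gstm6, Gsta2 and Gsta4 lie above Control in Cpt2PparaDKO, and Gstt1, Gstt3, Gsta3 and Gstk1 lie below Control in every mutant group.

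With Ppara lost on top of Cpt2, the mu-class genes and 2 alpha-class genes were higher, while Gpx1, Keap1 and Gstt2 were lower. No group lacked Ppara alone, so an effect of Ppara loss by itself cannot be told apart from one that needs Cpt2 loss. Cpt2 also differed between these groups, at 131 CPM in Cpt2KO and 33.9 in Cpt2PparaDKO. Against Cpt2KO, 9 of the 39 genes were called higher in Cpt2PparaDKO and 10 lower, where 24.4% of all genes were called, 12.1% higher and 12.2% lower. The count was 23 in all without the female-pattern libraries, beside 26.1% of all genes. With total-count scaling it was 10 higher and 6 lower, beside 26.6% and 6.36% of all genes, so that the share of the 39 genes called higher was then near that of all genes. The higher ones included the 5 mu-class genes. Gstm3 was higher by 5.93 ± 0.58 (adjusted p = 1.17e-06), Gstm2 by 2.60 ± 0.3 (adjusted p = 5.16e-06), Gstm6 by 2.16 ± 0.24 (adjusted p = 1.27e-06) and Gstm1 by 1.94 ± 0.2 (adjusted p = 3.03e-07) and for each of them the 2 groups did not overlap. Gsta4 was higher by 2.59 ± 0.18 (adjusted p = 7.37e-10) and Gsta2 by 2.37 ± 0.38 (adjusted p = 0.000177), again with no overlap. Gstt2 was lower by a log2 difference of -1.61 ± 0.18 (adjusted p = 1.32e-06).

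Hmox1 and Cbr3 were lower in Cpt2PparaDKO than in Cpt2KO, by log2 differences of -1.44 ± 0.45 (adjusted p = 0.0291) and -1.53 ± 0.51 (adjusted p = 0.0342), but the libraries overlapped. Both calls depended on single libraries. Hmox1 lost it without any 1 of Cpt2KO replicates 2 and 4 or of the 4 Cpt2PparaDKO libraries, to -0.95 (adjusted p = 0.123) without Cpt2KO replicate 4. Cbr3 lost it without any 1 of Cpt2KO replicates 1, 2 and 4 or Cpt2PparaDKO replicates 1, 2 and 3, to -1.21 (adjusted p = 0.105) without Cpt2KO replicate 1, and stood at -2.24 without the female-pattern libraries. Gstt3 was higher by 1.5 (adjusted p = 0.0237), and by 2.42 without Cpt2KO replicate 3, and it lost the call without any 1 of Cpt2KO replicates 1, 2 and 4 or Cpt2PparaDKO replicates 1 and 4 (adjusted p 0.0529 to 0.0744). Cbr1 and Gsto1 were lower by log2 differences of -0.46 and -0.39. Cbr1 lost its call without any 1 of Cpt2KO replicates 1, 2 and 4 or Cpt2PparaDKO replicates 1, 2 and 3 (adjusted p 0.0541 to 0.0763), and Gsto1 without any 1 of Cpt2KO replicates 1, 2 and 3 or Cpt2PparaDKO replicates 1, 2 and 3 (adjusted p 0.0755 to 0.145). Srxn1, Gclc, Pgd, Ugdh and Gsr were not called between these groups, with log2 differences of 0.36, 0.36, 0.45, -0.35 and -0.31. Without Cpt2PparaDKO replicate 4 those of Srxn1 and Pgd were -0.43 and -0.19, and without both female-pattern libraries -0.70 and -0.37, with no call. Without the female-pattern libraries Gsr, Txnrd1 and Ugdh were called lower in Cpt2PparaDKO, at -0.67 (adjusted p = 0.00541), -0.52 (adjusted p = 0.0394) and -0.90 (adjusted p = 0.0151), and Gsr also without Cpt2PparaDKO replicate 4 alone (-0.53, adjusted p = 0.029). Without Cpt2KO replicate 1, Nfe2l2 (-0.38, adjusted p = 0.0429) and G6pdx (0.64, adjusted p = 0.0348) also passed, as did Ephx1 without Cpt2KO replicate 3 (-0.63, adjusted p = 0.0152) or Cpt2PparaDKO replicate 1 (-0.64, adjusted p = 0.0233).

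Loss of Cpt2 was also compared directly with loss of Cpt1a and Cpt1b. Against Cpt1DKO, Cpt2KO had 9 of the 39 genes called higher and 3 lower, beside 14.1% of all genes, 7.41% higher and 6.71% lower. The split was 12 and 2 with total-count scaling, beside 10.7% and 4.5% of all genes, and 21 genes were called without the female-pattern libraries, beside 20.4%. Cbr3 was higher by 3.54, Hmox1 by 1.75, Mgst3 by 1.49, Ugdh by 1.24, Tkt by 0.85, Cbr1 by 0.82, Gss by 0.59, Gpx4 by 0.49 and Keap1 by 0.40. Gstt3 was lower by a log2 difference of -1.97, or -2.88 without Cpt2KO replicate 3, Gstk1 by -0.62 and Gsta4 by -0.53. The count fell to 7 without Cpt1DKO replicate 3, without Cpt1DKO replicate 4 or without Cpt2KO replicate 4, and Cbr1, Cbr3, Mgst3 and Tkt kept their calls in every alternative. Leaving out single libraries of either group ended the calls of Hmox1 (adjusted p up to 0.137), Gpx4 (0.14), Gss (0.108), Ugdh (0.0758) and Gstk1 (0.0613). That of Gsta4 was also lost with other scaling and without the female-pattern libraries (adjusted p up to 0.186).

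Adding the loss of Cpt1a and Cpt1b to that of Cpt2 left no called difference among the 39 genes. In TKO against Cpt2KO edgeR called 0 genes higher and 0 lower, beside 0.0511% of all genes, 0.0319% higher and 0.0191% lower. At an unadjusted p under 0.05 there were 4 higher and 1 lower, and DESeq2 called 1, Gsta4. The log2 difference of Gsta4 was 0.78 (unadjusted p = 0.000197, adjusted p = 0.164), and every TKO library lay above every Cpt2KO library. Without Cpt2KO replicate 3 Gstt3 was called higher in TKO, at 1.96. Adding the loss of Cpt2 to that of Cpt1a and Cpt1b, TKO against Cpt1DKO, gave 5 genes higher and 1 lower, beside 4.65% of all genes, 2.6% higher and 2.06% lower. With total-count scaling the split was 6 and 0, beside 5.66% and 1.4% of all genes, and 10 genes were called without the female-pattern libraries, beside 8.8%. Cbr3 was higher by 3.40, Ugdh by 1.53, Gclc by 1.38, Tkt by 0.63 and Cbr1 by 0.62, and Gstk1 was lower by a log2 difference of -0.59. Without TKO replicate 1 the count was 2, Cbr3 and Tkt, with adjusted p up to 0.0545 for Gclc, 0.0825 for Cbr1 and 0.0621 for Ugdh over the alternatives. Cbr1 also lost its call without Cpt1DKO replicate 1 or 4 and Ugdh without Cpt1DKO replicate 3, and Gstk1 lost it without any 1 of Cpt1DKO replicates 1, 3 and 4 or TKO replicates 1, 3 and 4 (adjusted p up to 0.156).

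The interaction asked whether losing Cpt2 had another effect in livers without Cpt1a and Cpt1b than in livers with them. It was called for 3 of the 39 genes, all positive, beside 2.7% of all genes, 1.42% positive and 1.28% negative, and for 6 without the female-pattern libraries, beside 6.15%. Gsta4 fell by 1.81 in Cpt2KO against Control, while TKO against Cpt1DKO gave a log2 difference of 0.25, an interaction of 2.06 ± 0.24 (adjusted p = 8.05e-05). Gstt1 fell by 1.49 in the first comparison and differed by -0.24 in the second, an interaction of 1.25 ± 0.27 (adjusted p = 0.0143). Gstm1 fell by 0.74 in the first and differed by 0.31 in the second, an interaction of 1.05 ± 0.27 (adjusted p = 0.0434). The Gstm1 interaction missed the threshold without any 1 of the libraries of the 4 groups involved except Cpt1DKO replicate 4, Cpt2KO replicate 4 and TKO replicate 2 (adjusted p 0.0522 to 0.0964). For Gstt3 the interaction was 2.37 (adjusted p = 0.0536), and 3.29 (adjusted p = 0.00095) without Cpt2KO replicate 3 or 2.58 (adjusted p = 0.0463) without TKO replicate 4. Gsta2 (1.95, adjusted p = 0.0534) and Gsta3 (1.09, adjusted p = 0.0619) missed it in edgeR and passed with DESeq2 (adjusted p = 0.00494 and 0.0207). Gsta2 also passed with the replicate number as a block (2.12, adjusted p = 0.0405) and without the female-pattern libraries (1.67, adjusted p = 0.0371). Both passed without certain single libraries, Gsta2 at 2.30 (adjusted p = 0.0258) without Cpt2KO replicate 4 and at 2.20 without Cpt2KO replicate 1, and Gsta3 at 1.33 (adjusted p = 0.0156) without Cpt1DKO replicate 3.

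Libraries of one group differed widely in Srxn1, and some of the other genes varied with it. Each library's deviation from its group mean of log2(CPM + 0.5) was compared between genes over the 20 libraries. These points share libraries, depth and scaling, so the correlations are descriptions. The deviation of Srxn1 had a Pearson r of 0.96 with Pgd, 0.92 with Gsr, 0.89 with Txnrd1, 0.86 with Ugdh, 0.78 with Gstm1 and 0.71 with Gclc, and an r over 0.7 with 9 of the other 38 genes, against 4.06% of all genes tested. Its median r with the 38 was 0.28, beside -0.03 over all genes, and it was 0.01 with Gpx4, -0.52 with Mgst1 and -0.58 with Gstt1. With Gstk1 and Gstz1 its r was -0.62 and -0.75, and with Nfe2l2 -0.10. Gstz1 and Gstk1 varied together with an r of 0.87. TKO replicate 1 was the highest of its group for 29 of the 39 genes (27.2% of all genes), Cpt2KO replicate 3 the lowest of its group for 26 (24.6%), and Cpt2PparaDKO replicate 4 the highest for 20 (35.5%) and the lowest for 13 (38.1%). The last 2 are the female-pattern libraries, and the part of sex in these deviations was not tested.

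**Figure D4:**
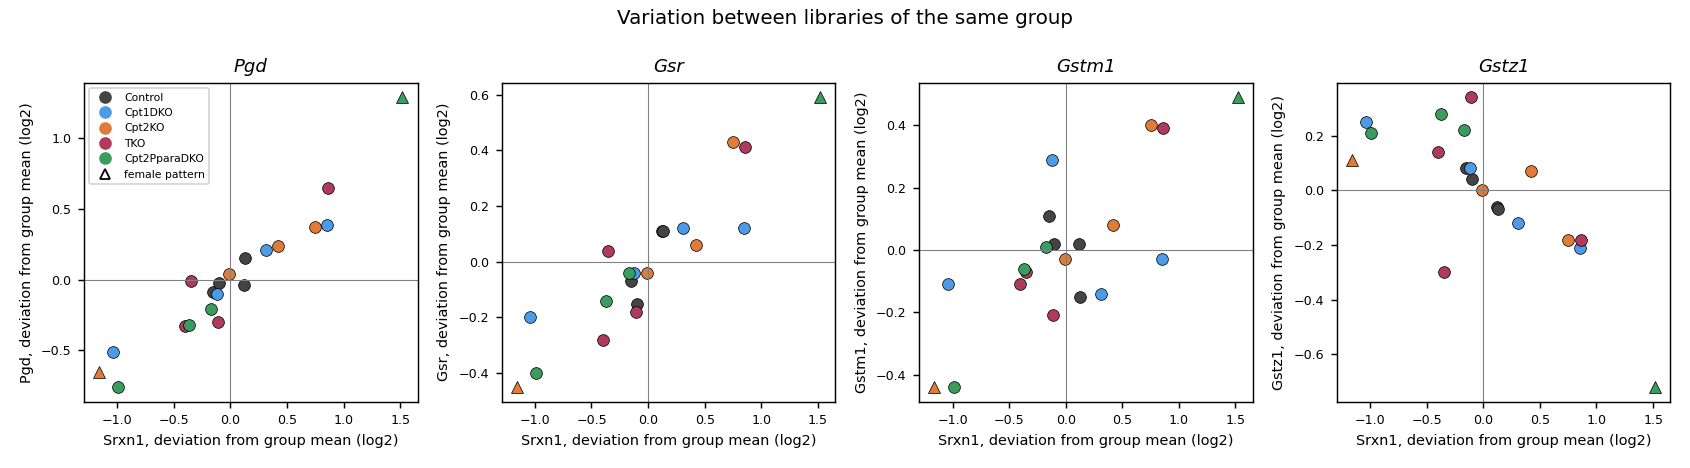
Deviation of each of the 20 libraries from its group mean of log2(CPM + 0.5) for Srxn1 (horizontal axes) and for Pgd, Gsr, Gstm1 and Gstz1 (vertical axes), with colours for groups, circles for male-pattern and triangles for female-pattern libraries. Pgd, Gsr and Gstm1 rise with Srxn1 (r of 0.96, 0.92 and 0.78) and Gstz1 falls with it (r of -0.75).

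Other genes of the pathway also went both ways, and their counts are to be read beside the shares of all genes called, which were 16.2% higher and 17.2% lower in Cpt2KO, 13% and 14.4% in TKO, and 14.9% and 17.6% in Cpt2PparaDKO. Of 11 NRF2 partners, repressors and degradation genes, 5 were called higher and 2 lower in Cpt2KO, 5 and 1 in TKO, 3 and 2 in Cpt2PparaDKO, and 1 and 1 in Cpt1DKO. Their largest rise was that of the small MAF gene Maff in Cpt2KO (log2 1.59) and TKO (1.57). In Cpt2PparaDKO it was that of Sqstm1 (1.57), from 454 ± 30.7 to 1350 ± 649 CPM, which encodes p62, a scaffold that binds KEAP1. Of 21 further antioxidant response genes tested, 8 were higher in each of Cpt2KO, TKO and Cpt2PparaDKO, and 3, 2 and 2 were lower. Slc7a11, the cystine carrier that feeds glutathione synthesis, was at 0 counts in all 4 Control libraries and averaged 2.76 CPM in Cpt2KO, 2.41 in TKO and 2.48 in Cpt2PparaDKO. Taking 3 counts over the Control libraries as the floor, it was at least 59.4-fold, 51.9-fold and 53.4-fold higher.

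Genes of glutathione turnover and supply were called lower more often than higher, with 3 of 14 tested higher and 7 lower in Cpt2KO, 2 and 7 in TKO and 0 and 6 in Cpt2PparaDKO. The largest fall in Cpt2KO and TKO was that of Cth, the transsulfuration enzyme that makes cysteine, at -3.43 ± 0.42 (adjusted p = 8.8e-06) and -2.89, and the largest rise was that of Chac1, which degrades glutathione, at 2.11 and 2.05. Cth was higher in Cpt2PparaDKO than in Cpt2KO by 2.29. Of 23 other peroxide and superoxide genes, 3 were higher in each of Cpt2KO, TKO and Cpt2PparaDKO and 4, 7 and 11 were lower, which in Cpt2KO is close to the shares of all genes. Their largest falls were those of catalase, Cat, in Cpt2KO (-0.73), the peroxiredoxin Prdx4 in TKO (-0.93) and glutaredoxin, Glrx, in Cpt2PparaDKO (-1.79). Of 8 other pentose phosphate and NADPH genes, 2 were higher and 3 lower in Cpt2KO, 0 and 2 in TKO and 0 and 2 in Cpt2PparaDKO, with the folate enzyme Aldh1l1 falling most in each (-2.33, -1.67 and -1.66). Of 8 other glutathione transferases tested, 4 were higher in Cpt2PparaDKO and 1 lower, among them the pi-class gene Gstp3 at 1.70.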

How the data were processed

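The authors deposited whole-number read counts per gene for 20 liver libraries, with gene identifiers, symbols, coordinates and lengths; per the submitters' processing notes, HISAT2 and build GRCm39 (mm39) were used. The sources used here do not give the aligner version, counting tool, strand setting or annotation release. Counts were scaled with TMM factors, filtered with filterByExpr (minimum count 10; 15669 of 56748 genes kept) and fitted with edgeR's quasi-likelihood model (edgeR 4.0.16, R 4.3.3, robust, group as the only factor, all 20 libraries, biological coefficient of variation 0.233). Tests were two-sided, with Benjamini-Hochberg adjustment over all genes of each of 9 comparisons and calls at an adjusted p under 0.05. Every adjusted p is from this test unless DESeq2 (1.42.0) is named. An SE is the absolute log2 difference divided by the square root of F. Library totals were 14129595 to 36452673 counts, and libraries of a group differed beyond sampling noise (chi-square per degree of freedom 12.5 to 168), so none was counted as a copy.

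The genes and lists were chosen with earlier results of these data known, and the deposited gene lengths were used only for CPM per kb. Values of every library are given for Nfe2l2, Keap1, Nqo1 and Gclc, the 12 called genes with the largest log2 difference from Control, those called in opposite directions, and those that differ by over 1 between Cpt2PparaDKO and Cpt2KO. Genes of other lists are named where they had the largest rise or fall of their list or are the closest paralog. Alternatives were other scaling, no filter, a replicate block, DESeq2, fewer groups, the female-pattern libraries left out or as a covariate, and each library left out. The deposited FPKM values and comparison tables were not used here. The analysis was tried on simulated counts with independent genes and a small set of known changes, a simpler setting than these data. The results above do not rest on that trial.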

Additional observations from a re-analysis of the deposited data

Results flagged for a closer look

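In 20 of 195 gene and group combinations (10.3%), 1 library lay apart from the other 3 of its group by a gap whose share of the group's range was above Dixon's 95% critical value for 4 libraries. Chance gives about 1 in 20. Of the 20, 8 were Cpt2PparaDKO replicate 4, a female-pattern library. There Srxn1 was at 1290 CPM (others 226 to 400), Pgd at 204 (48.8 to 71.9), Nqo1 at 43.8 (24.4 to 26.7), Gstm6 at 121 (51.2 to 55.1) and Gsto1 at 144 (83.8 to 87.2), while Gstz1 was at 213 (407 to 427), Gstk1 at 21 (38.2 to 40.3) and Prdx1 at 562 (697 to 707). Cpt2KO replicate 3, the other female-pattern library, stood apart for Gstt3 at 15.5 CPM (2.88 to 4.25) and Cbr1 at 128 (175 to 180).

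Among the male-pattern libraries, TKO replicate 1 was apart for Srxn1 at 924 CPM (others 385 to 470) and TKO replicate 2 for Gstk1 at 69.8 (51.4 to 53). Control replicate 3 was apart for Prdx1 at 776 CPM (648 to 659) and Gpx4 at 273 (241 to 246), and Control replicate 4 for Gstm6 at 35.6 (33.8 to 34.1). Cpt1DKO replicate 4 was apart for Gpx1 at 264 CPM (212 to 218) and Gstm4 at 66.7 (45.6 to 47.6), and Cpt1DKO replicate 2 for G6pdx at 7.32 (5.3 to 5.5). Cpt2KO replicate 1 was apart for Gstm2 at 10.6 CPM (19.1 to 20.3), and Cpt2PparaDKO replicate 3 for G6pdx at 9.16 (8.33 to 8.38).

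The effect of losing Cpt2 differed between livers with and without Cpt1a and Cpt1b, by the interaction test, for Gsta4 (2.06), Gstt1 (1.25) and Gstm1 (1.05). Only 2 of these 3 calls were kept in every alternative. That of Gstm1 was lost when most single libraries of the groups involved were left out, as described above.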

How the results depend on the processing

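The calls kept in every alternative were 3 of 4 in Cpt1DKO, 19 of 21 in Cpt2KO, 15 of 17 in TKO and 21 of 28 in Cpt2PparaDKO against Control, 4 of 12 in Cpt2KO against Cpt1DKO, 14 of 19 in Cpt2PparaDKO against Cpt2KO, 2 of 6 in TKO against Cpt1DKO and 2 of 3 in the interaction. Without the 2 female-pattern libraries the counts called were 11 in Cpt1DKO, 21 in Cpt2KO against Cpt1DKO, 1 in TKO against Cpt2KO (Gstt3, 1.95), 10 in TKO against Cpt1DKO and 6 in the interaction. Control, Cpt1DKO and TKO hold none of these libraries, so comparisons among these groups changed only through the shared fit. With the female pattern as a covariate 7 were called in Cpt1DKO and 5 in the interaction, with only the groups compared 13 in Cpt1DKO and 7 in Cpt2KO against Cpt1DKO, and with DESeq2 7 in Cpt1DKO, 1 in TKO against Cpt2KO and 7 in the interaction. Leaving out 1 library at a time gave 3 to 4 in Cpt1DKO, 20 to 24 in Cpt2KO, 16 to 22 in TKO, 24 to 28 in Cpt2PparaDKO, 7 to 19 in Cpt2KO against Cpt1DKO, 14 to 19 in Cpt2PparaDKO against Cpt2KO, 0 to 1 in TKO against Cpt2KO, 2 to 8 in TKO against Cpt1DKO and 2 to 4 in the interaction. With total-count scaling the Cpt2PparaDKO differences of Nfe2l2, Keap1, Prdx1 and Taldo1 turned to 0.45, 0.35, 0.44 and 0.00.

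Replicate numbers did not pair the libraries: same-numbered libraries of different groups had a median correlation of deviations of 0.01 over 40 pairs, with 4 over 0.1. A fit with the replicate number as a block called 4, 22, 18 and 28 of the 39 genes in Cpt1DKO, Cpt2KO, TKO and Cpt2PparaDKO against Control, 12 in Cpt2KO against Cpt1DKO, 19 in Cpt2PparaDKO against Cpt2KO, 0 in TKO against Cpt2KO, 7 in TKO against Cpt1DKO and 4 in the interaction.

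Over all genes, the number called moved by over 1.5 times in Cpt1DKO (869 to 1581 without the female-pattern libraries, 1442 with only the groups compared and 1405 with DESeq2), in Cpt2PparaDKO against Control (5091 to 8454 with total-count scaling), in Cpt2KO against Cpt1DKO (2212 to 1344 with only the groups compared), in Cpt2PparaDKO against Cpt2KO (3822 to 2495 with only the groups compared), in TKO against Cpt2KO (8 to 16 without the female-pattern libraries, 5 with the replicate block or only the groups compared and 57 with DESeq2), in TKO against Cpt1DKO (729 to 1391 and 1273, and 1106 with total-count scaling) and in the interaction (423 to 973 and 926), the first values of each pair without the female-pattern libraries and the others with DESeq2. Leaving out 1 library moved it over 1.5 times in 5 comparisons, for several libraries in each, with the lowest values as follows: to 288 in Cpt1DKO without Cpt1DKO replicate 1 (lowest of 288 to 1188), to 1192 in Cpt2KO against Cpt1DKO without Cpt2KO replicate 2 (to 2517), to 3 in TKO against Cpt2KO without Cpt2KO replicate 2, TKO replicate 2 or TKO replicate 3 (to 10), to 278 in TKO against Cpt1DKO without TKO replicate 1 (to 898) and to 178 in the interaction without Cpt1DKO replicate 1 (to 585). In comparisons among Control, Cpt1DKO and TKO, leaving out the female-pattern libraries changed only the shared fit. What else moved the numbers was not tested. Depth limits Cbr3 in Control and Slc7a11, which lie near or at 0 counts.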
